A study of Mus musculus with 9 samples.

Results

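The 10 genes followed here are the eosinophil lineage genes Epx, Prg2, Prg3, Ear1, Ear2, Ear6, Ear10, Il5ra, Ccr3 and Siglecf, chosen by name for the granule proteins and receptors of eosinophils, out of the 37980 mouse genes in the deposited table. Eosinophils are granulocytes that arise in the bone marrow from myeloid progenitors. Their granule proteins are already transcribed in early committed precursors, so these transcripts mark the lineage before the mature cell appears. Commitment is known to need the transcription factors Gata1, Spi1 and members of the C/EBP family, and growth of the precursors depends on interleukin-5 acting through its receptor.

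RNA was sequenced from myeloid progenitors (MPs) of mouse bone marrow, sorted as Lin-ckit+Sca1- cells, 100000 cells to a sample. In the NA MP group (4 samples), cells carried the Nup98-Hoxa10hd fusion gene (NA), which was expressed from the Rosa26 locus after recombination by Vav-Cre, a driver active throughout blood cells, and were sorted as Tdtomato+ donor cells from irradiated adult recipients of NA multipotent progenitors (MPPs). In the WT MP group (5 samples), cells of the WT genotype were taken as CD45.2+ from mice that had received WT MPPs. Both groups were of the C57BL/6 strain. The labels place the sort at 3 months after transplantation, whereas the methods of the study place it a month later. The study describes the recipients as CD45.2+ and, in other assays, WT donor cells as CD45.1+, so donor, helper and recipient origin of the WT MPs cannot be told apart. It is not given whether a sample came from a single mouse, and p-values therefore measure the spread between these samples. The age of the donors is not given in the sources used here.

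The counts recovered from the deposited table summed to between 5557718 and 8106140 per sample. Levels are given as CPM, the count of a gene scaled to a common library total by TMM normalization, and groups were compared by the quasi-likelihood test of edgeR, with p-values adjusted by Benjamini-Hochberg over all 11953 tested genes and a threshold of 0.05. The labels were first checked by the fusion partners. Nup98, a nuclear pore protein, was at 145, 127, 150.5 and 155 CPM in NA MP replicates 1 to 4 and between 85.1 and 94.3 CPM in the 5 WT MP samples. Hoxa10, a homeodomain transcription factor, was at 23.4, 18.7, 18.2 and 17.5 CPM in NA MPs and between 0.840 and 1.80 CPM in WT MPs. The groups did not overlap for either gene, in the direction of the labels, although the table has no entry for the fusion itself. Of 7 genes that describe the progenitor gate, all tested, 3 were higher and 1 was lower in NA MPs, beside 17.9% and 16.3% of all tested genes. Kit was the most abundant of the 7 at a mean of 452 CPM, and none was at 0. The sum of the 7 genes was 1203, 1137, 1168 and 1151 CPM in NA MP replicates 1 to 4 and 1182, 1154, 1162, 1184 and 1156 CPM in WT MP replicates 1 to 5. This sum does not show the changes of single gate genes. Slamf1 (0.57), Cd48 (0.40) and Cd34 (0.12) were higher on the log2 scale and Fcgr3 (-0.57) was lower, each without overlap between the groups.

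Transcripts of 9 of the 10 members were detected, and 8 passed the filter on low counts. Of these 8, 6 passed the threshold, where 34.1% of all tested genes did. In NA MPs 4 members were lower (Prg2, Prg3, Ear1 and Ear2), where 16.3% of all tested genes were lower, and 2 were higher (Ccr3 and Siglecf), where 17.9% were higher. All 6 tested genes of granule proteins and ribonucleases had a negative log2 fold change, whereas the surface receptor genes Ccr3 and Siglecf moved the opposite way. The filter bears on these counts, since Ear1 and Ear2 reached it through WT MPs and Ccr3 through NA MPs, where each is high, and it left out the receptor gene Il5ra. The values of the groups did not overlap for 4 of the 8 tested members (Prg2, Ear1, Ccr3 and Siglecf), where 26.4% of all tested genes did not overlap. The median log2 fold change of the 8 was -0.74, beside -0.0011 over all tested genes. In these bulk samples, fewer cells of a type and less RNA in each cell cannot be told apart.

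**Figure D1:**
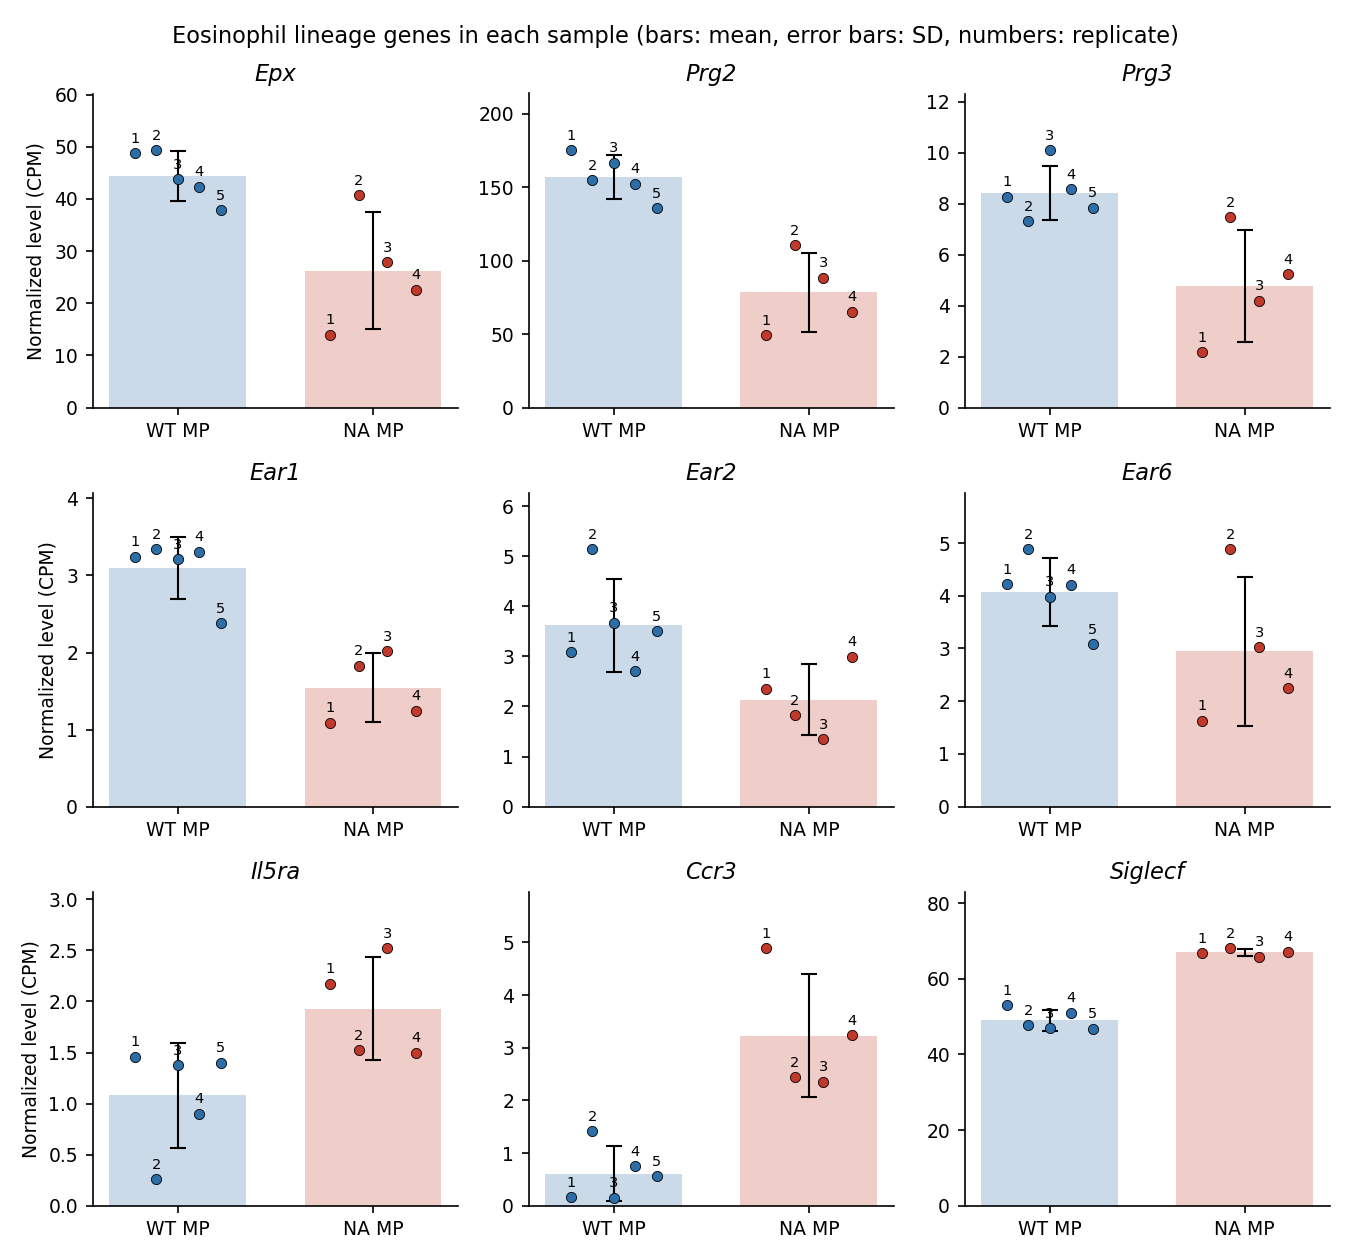
Normalized level (CPM, vertical axes from 0) of the 9 detected members in each sample, with a panel for each gene, WT MPs in blue and NA MPs in red. Points are samples numbered by replicate, bars the group means and error bars the SD; the 4 NA MP samples lie below all WT MP samples for Prg2 and Ear1 and above all of them for Il5ra, Ccr3 and Siglecf.

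Prg2 (ENSMUSG00000027073, chr2:84980461-84983632 on the plus strand of GRCm38) encodes major basic protein, the arginine-rich core of the eosinophil granule, which is toxic to parasites and to host epithelium. Its level was 49.5, 110.5, 88.4 and 65.4 CPM in NA MP replicates 1 to 4 and 175, 155, 167, 153 and 136 CPM in WT MP replicates 1 to 5. Every NA MP sample lay below every WT MP sample, with replicate 1 the lowest and replicate 2 the highest of the NA MPs. The mean was 78.4 ± 26.7 CPM (SD, n = 4) in NA MPs and 157 ± 14.99 CPM (SD, n = 5) in WT MPs. Prg2 fell by 0.99 on the log2 scale (standard error, SE, 0.21, edgeR adjusted p = 0.00758).

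Prg3 (ENSMUSG00000027072, chr2:84988215-84993886, plus strand) encodes a second major basic protein and is the next gene on the chromosome, with 4582 bases and 0 annotated genes between them in GENCODE M21. Its level was 2.17, 7.47, 4.20 and 5.24 CPM in NA MP replicates 1 to 4 and 8.27, 7.33, 10.1, 8.57 and 7.84 CPM in WT MP replicates 1 to 5. As for Prg2, replicate 1 was the lowest and replicate 2 the highest NA MP sample, and replicate 2 lay above WT MP replicate 2, so the groups overlapped. The log2 fold change was -0.77 (SE 0.19, edgeR adjusted p = 0.00252).

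Epx (ENSMUSG00000052234, chr11:87864000-87875536, minus strand) encodes eosinophil peroxidase, the granule enzyme that makes hypobromous acid from hydrogen peroxide and bromide. Its level was 13.9, 40.7, 27.9 and 22.6 CPM in NA MP replicates 1 to 4 and 48.8, 49.3, 43.8, 42.4 and 37.8 CPM in WT MP replicates 1 to 5. NA MP replicate 2 lay above WT MP replicate 5, and the other NA MP samples below all WT MP samples. The log2 fold change of -0.74 (SE 0.25) did not pass the threshold (adjusted p = 0.0565 from edgeR). Without NA MP replicate 2 it was -1.03 with an adjusted p of 0.0061 from edgeR, with DESeq2 the adjusted p was 0.0343, and with library size in place of TMM normalization, an alternative chosen after seeing the data, it was 0.0499 from edgeR, in a range from 0.0061 to 0.143 over its 19 alternatives.

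Promoters were taken from RefSeq (GRCm38.p6), where 9 of the 10 members matched an entry and Prg2 did not. They serve to show the sequence upstream of members that passed the threshold. Each is given as the 250 bases before the start of the gene in RefSeq, read 5′ to 3′ on the strand of the gene, and none of those printed holds a GENCODE M21 exon. They were searched on both strands for 3 short motifs that belong to factors of the eosinophil lineage. The GATA motif was searched as GATAA or GATAG after an A or a T, the C/EBP motif as TTGCNNAA and the ETS motif, of the kind Spi1 binds, as GAGGAA. Of 32817 mouse promoters of the same length, 26.6% held the GATA letters, 9.57% the C/EBP letters and 23.3% the ETS letters. A match is a description of the letters and not a site. In the window of Prg3 (chr2:84987965-84988214, plus strand), capitals mark the GATA letters, which lie on the opposite strand.
Prg3: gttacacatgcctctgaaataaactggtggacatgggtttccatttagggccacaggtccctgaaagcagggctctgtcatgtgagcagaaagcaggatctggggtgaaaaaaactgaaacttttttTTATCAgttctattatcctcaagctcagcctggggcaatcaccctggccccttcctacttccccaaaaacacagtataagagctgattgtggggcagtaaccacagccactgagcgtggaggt

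**Figure D2:**
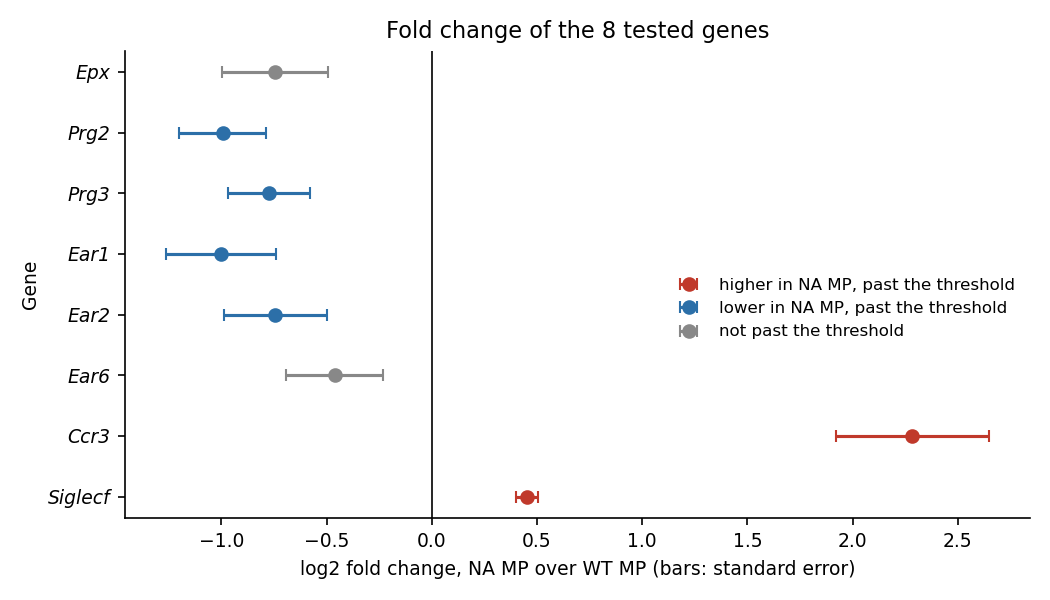
The log2 fold change of NA MPs over WT MPs (horizontal axis) for the 8 tested members, with bars for the standard error from edgeR. Of the 6 genes of granule proteins and ribonucleases, 4 lie below 0 past the threshold (blue) and Epx and Ear6 lie below 0 without passing it (grey), while Ccr3 at 2.28 and Siglecf at 0.45 lie above 0 past it (red).

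The Ear genes encode eosinophil-associated ribonucleases, the rodent relatives of eosinophil cationic protein and eosinophil-derived neurotoxin, which are stored in the granule and act against viruses and parasites. Of 11 Ear symbols listed, 5 were in the table and 3 were tested, all on chromosome 14, with Ear6 lying 7750164 bases from Ear2. Ear1 (ENSMUSG00000072601, chr14:43818765-43875517, minus strand) had 6, 12, 12 and 10 counts in NA MP replicates 1 to 4 and 20, 26, 21, 22 and 17 counts in WT MP replicates 1 to 5. The NA MP samples lay below all WT MP samples. The mean was 1.55 ± 0.448 CPM (SD, n = 4) in NA MPs and 3.10 ± 0.404 CPM (SD, n = 5) in WT MPs, which gave a log2 fold change of -1.0 (SE 0.26, edgeR adjusted p = 0.00199).

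Ear2 (ENSMUSG00000072596, chr14:44102654-44103534, plus strand) had 13, 12, 8 and 24 counts in NA MP replicates 1 to 4 and 19, 40, 24, 18 and 25 counts in WT MP replicates 1 to 5. The groups overlapped, since NA MP replicate 4 lay above WT MP replicate 4 in CPM. Its log2 fold change of -0.74 (SE 0.24, edgeR adjusted p = 0.0144) was the least stable of the 4 that fell. It was -0.76 with DESeq2 (adjusted p = 0.0798), -0.59 without NA MP replicate 3 (0.0763 from edgeR) and -0.57 without WT MP replicate 2 (0.0903 from edgeR), with an adjusted p in a range from 0.0048 to 0.0903 over its 18 alternatives.

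Ear6 (ENSMUSG00000062148, chr14:51853699-51854643, plus strand) had 9, 32, 18 and 18 counts in NA MP replicates 1 to 4 and 26, 38, 26, 28 and 22 counts in WT MP replicates 1 to 5. NA MP replicate 2, at 4.88 CPM, stood among the highest WT MP samples, and NA MP replicates 1, 3 and 4 lay below all of them. The log2 fold change of -0.46 (SE 0.23) did not pass the threshold (adjusted p = 0.117 from edgeR). Without NA MP replicate 2 it was -0.82 with an adjusted p of 0.0088 from edgeR, in a range from 0.0088 to 0.349 over its 18 alternatives.

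Ear10 (ENSMUSG00000090166, chr14:43922720-43923559, minus strand) had 0 counts in all 9 samples. With the total count of each sample before TMM normalization, 3 counts correspond to between 0.370 and 0.540 CPM, so Ear10 was not detectable at this depth. Only counting error enters that limit. The same holds for Ear14, the other family member in the table, also at 0 in all samples.

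The Ear genes are close copies, and their counts are uncertain. Of the 50-base windows of the annotated transcripts, 57.4% of Ear1, 41.5% of Ear2 and 39.9% of Ear10 were also found in another gene, in each case an Ear gene or Ear pseudogene, beside 0.954% of Ear6. An exon of Ear1 also overlaps one of the pseudogene Ear-ps9 on the same strand. The counts of the family were therefore also summed, which in effect adds Ear1, Ear2 and Ear6, and leaves out the pseudogenes Ear-ps9 and Ear-ps2, with which Ear1 and Ear2 share windows as well. The sum was 5.07, 8.54, 6.39 and 6.49 CPM in NA MP replicates 1 to 4 and 10.5, 13.4, 10.9, 10.2 and 8.96 CPM in WT MP replicates 1 to 5, with no overlap between the groups. As a single feature in the fit across all genes, the summed family had a log2 fold change of -0.70 (SE 0.14, edgeR adjusted p = 8.35e-05).

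The promoters of Ear1 (chr14:43819640-43819889, minus strand) and Ear2 (chr14:44102404-44102653, plus strand) are shown for their likeness. The start of Ear1 in RefSeq is not its start in GENCODE M21, and this window lies within the GENCODE span of the gene, outside its exons. Lined up on the C/EBP letters, which capitals mark, 246 of 248 bases are identical, beside 212 of 248 between Ear1 and Ear10, which had 0 counts. The C/EBP letters begin 92 bases before the RefSeq start of Ear1 and 90 bases before that of Ear2.
Ear1: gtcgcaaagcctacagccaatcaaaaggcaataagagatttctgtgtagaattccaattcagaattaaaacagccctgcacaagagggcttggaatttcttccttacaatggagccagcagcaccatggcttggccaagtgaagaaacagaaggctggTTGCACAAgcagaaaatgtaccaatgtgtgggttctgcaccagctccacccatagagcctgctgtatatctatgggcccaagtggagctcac
Ear2: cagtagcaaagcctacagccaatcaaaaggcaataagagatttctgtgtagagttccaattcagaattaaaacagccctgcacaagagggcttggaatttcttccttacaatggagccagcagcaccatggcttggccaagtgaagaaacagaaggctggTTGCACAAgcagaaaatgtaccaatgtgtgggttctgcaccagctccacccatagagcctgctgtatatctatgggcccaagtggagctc

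Ccr3 (ENSMUSG00000035448, chr9:124021972-124031689, plus strand) encodes the eotaxin receptor, which draws eosinophils into tissue and is also carried by basophils and mast cells. It had 27, 16, 14 and 26 counts in NA MP replicates 1 to 4 and 1, 11, 1, 5 and 4 counts in WT MP replicates 1 to 5. All NA MP samples lay above all WT MP samples, with replicate 1 the highest. The mean was 3.23 ± 1.18 CPM (SD, n = 4) in NA MPs and 0.608 ± 0.519 CPM (SD, n = 5) in WT MPs, which gave a log2 fold change of 2.28 (SE 0.36, edgeR adjusted p = 2.46e-06). Without WT MP replicate 2, which holds 11 of the 22 counts in WT MPs, the log2 fold change was 2.89.

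Siglecf (ENSMUSG00000039013, chr7:43351341-43359531, plus strand) encodes a sialic acid-binding lectin that inhibits eosinophils and is the usual surface marker of mouse eosinophils, as well as of alveolar macrophages. Its level was 66.8, 68.1, 65.9 and 67.2 CPM in NA MP replicates 1 to 4 and 53.0, 47.7, 47.0, 51.1 and 46.8 CPM in WT MP replicates 1 to 5. The groups did not overlap, and the NA MP samples lay close together, with a coefficient of variation of 1.38% beside 34.04% for Prg2 in the same samples. Siglecf was higher by a log2 fold change of 0.45 (SE 0.05, edgeR adjusted p = 9.77e-10).

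Il5ra (ENSMUSG00000005364, chr6:106710357-106749037, minus strand) encodes the interleukin-5-binding chain of the receptor, found on eosinophils, basophils and some B cells. It had 12, 10, 15 and 12 counts in NA MP replicates 1 to 4 and 9, 2, 9, 6 and 10 counts in WT MP replicates 1 to 5. In CPM the lowest NA MP sample, at 1.497, lay just above the highest WT MP sample, at 1.46. The mean was 1.93 ± 0.504 CPM (SD, n = 4) in NA MPs and 1.08 ± 0.511 CPM (SD, n = 5) in WT MPs. As the filter left Il5ra out of the fit, the means were compared by a permutation test, exact and two-sided, with p = 0.0159. No smaller p is possible with 4 and 5 samples. In fits across all genes without the filter, its log2 fold change was 0.83 with edgeR (adjusted p = 0.0672) and 0.84 with DESeq2 (adjusted p = 0.196), and neither passed the threshold.

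The promoters of Ccr3 (chr9:124021721-124021970, plus strand) and Siglecf (chr7:43351091-43351340, plus strand), the members that rose, are shown beside those that fell. Capitals mark all matches, which in Ccr3 are the ETS letters 181 bases before the start and GATA letters 64 and 30 bases before it, and in Siglecf the ETS letters on the opposite strand 65 bases before the start. Over the 9 members with an entry, 3 held the GATA letters (Prg3, Il5ra and Ccr3), beside 26.6% of all mouse promoters searched. The C/EBP letters were in 3 (Ear1, Ear2 and Ear10), beside 9.57%, and the ETS letters in 2 (Ccr3 and Siglecf), beside 23.3%. The 3 Ear windows are 85.5% to 99.2% identical, so their C/EBP letters are not separate matches.
Ccr3: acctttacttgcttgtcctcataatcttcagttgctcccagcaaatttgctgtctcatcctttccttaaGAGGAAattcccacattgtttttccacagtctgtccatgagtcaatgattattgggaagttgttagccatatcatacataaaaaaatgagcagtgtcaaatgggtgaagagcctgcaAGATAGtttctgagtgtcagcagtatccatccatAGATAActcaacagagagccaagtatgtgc
Siglecf: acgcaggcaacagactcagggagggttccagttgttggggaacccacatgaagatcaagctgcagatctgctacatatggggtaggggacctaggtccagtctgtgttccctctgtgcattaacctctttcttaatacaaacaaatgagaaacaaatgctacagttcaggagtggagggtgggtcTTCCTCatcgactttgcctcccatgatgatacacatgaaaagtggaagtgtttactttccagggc

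Levels were compared between members per length, as CPM per kb of annotated exon. In WT MPs the order ran from Prg2 at a mean level of 187 CPM per kb through Siglecf at 17.6, Epx at 16.2, Prg3 at 8.87, Ear2 at 5.03, Ear6 at 4.31 and Ear1 at 4.24 to Il5ra at 0.302 and Ccr3 at 0.186 CPM per kb. In this order the sample ranges of Siglecf and Epx overlapped, as did those of Ear2 and Ear6, of Ear6 and Ear1, and of Il5ra and Ccr3. In NA MPs the mean level of Prg2 was 93.6 CPM per kb, Siglecf followed at 24.03 and Epx at 9.60 CPM per kb, and the ranges of Siglecf and Epx no longer overlapped. Ccr3, at 0.988 CPM per kb, stood above Il5ra at 0.540 CPM per kb without overlap. The sum of the 10 members without division by length was 145, 239, 198 and 172 CPM in NA MP replicates 1 to 4 and 297, 274, 279.9, 266 and 239 CPM in WT MP replicates 1 to 5. NA MP replicate 2, at 239.3 CPM, lay just above WT MP replicate 5, at 239.2 CPM, so the groups overlapped.

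Over all genes compared, most pairs of NA MP samples differed more than pairs of WT MP samples, with overlapping ranges, at a chi-square of 1.63 to 2.82 for each degree of freedom in NA MPs and 1.21 to 1.72 in WT MPs. The transcripts of the granule proteins also varied more among NA MPs. The coefficient of variation of Epx was 42.6% in NA MPs and 10.8% in WT MPs, that of Prg2 34.04% and 9.54%, and that of Prg3 46.2% and 12.5%. The coefficients of the receptor genes were instead lower in NA MPs. Siglecf stood at 1.38% in NA MPs and 5.69% in WT MPs, Ccr3 at 36.4% and 85.4%, and Il5ra at 26.1% and 47.3%. Ccr3 held 1 to 11 counts in the WT MP samples and Il5ra 2 to 10. Counting error enters these coefficients and was not separated from the spread between samples. Between the lowest and highest NA MP sample Epx differed 2.92-fold, Prg2 2.23-fold and Prg3 3.44-fold. NA MP replicate 1 was the lowest of its group for 5 of the 9 detected members (Epx, Prg2, Prg3, Ear1 and Ear6), and replicate 2 was the highest for 5 (Epx, Prg2, Prg3, Ear6 and Siglecf). For Ccr3 replicate 1 was the highest. In WT MPs, replicate 5 was the lowest of its group for 5 members and replicate 2 the highest for 5. The difference in spread between the groups was not tested.

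**Figure D3:**
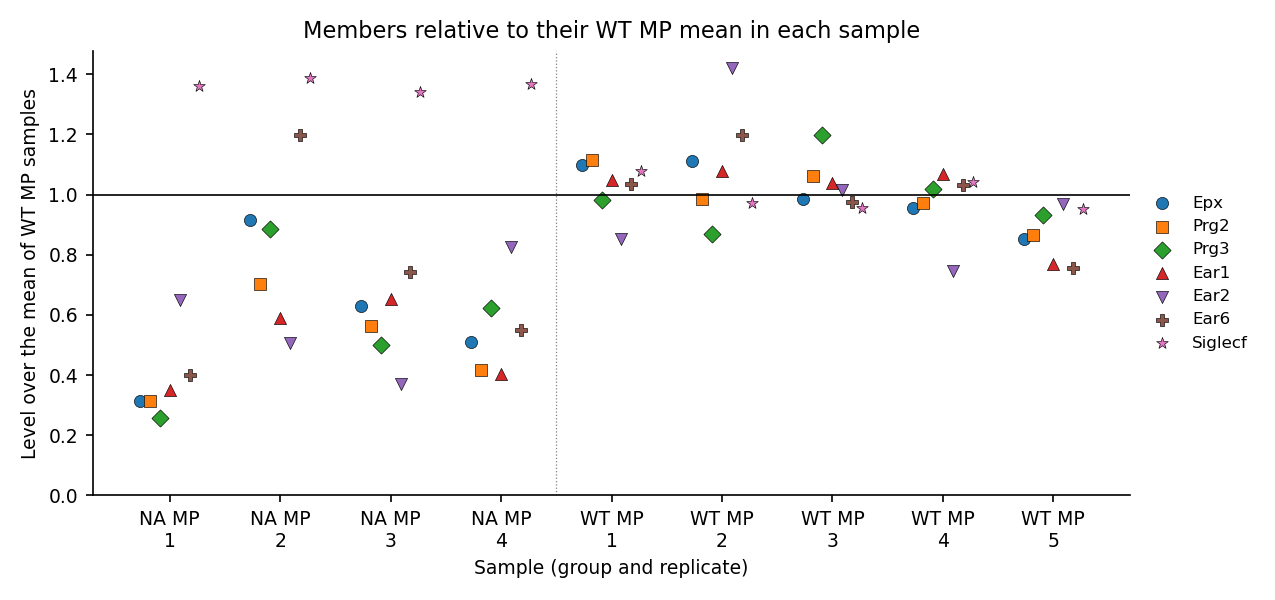
Level of 7 members in each sample divided by the mean of the 5 WT MP samples (vertical axis from 0; the line at 1 is that mean), with samples along the horizontal axis. Among NA MPs, replicate 1 has the lowest Epx, Prg2, Prg3, Ear1 and Ear6, replicate 2 the highest Epx, Prg2, Prg3 and Ear6, and Siglecf stays near the same height in all 4.

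The genes whose pattern over the 9 samples was most like that of Prg2, the member with the highest mean level, were found by the root mean square difference of centred log2 CPM, a measure that includes the difference between the groups. Outside the members the nearest were Cpne8 at 0.14, Afdn at 0.23, Cc2d2a at 0.23, Cdc42bpa at 0.26 and Sept4 at 0.26. Among the members Epx stood at 0.16, Ear1 at 0.18, Prg3 at 0.26, Ear6 at 0.31 and Ear2 at 0.57 from Prg2, and Siglecf at 0.81 and Ccr3 at 1.76. Each placed singly among the tested genes outside the members, Epx and Ear1 ranked 2, Prg3 4 and Ear6 23 in nearness to Prg2. Ear2 ranked only 2865, Siglecf 10852 and Ccr3 11865. Since Prg2 is lower in NA MPs, a gene chosen in this way is lower there too, and the direction of these 5 genes is no further result.

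Of 17 transcription factors and their regulators known in the eosinophil lineage, all tested, 6 were higher and 3 lower in NA MPs. Over all tested genes 17.9% were higher and 16.3% lower. The median log2 fold change of the 17 was -0.02. Gata1, which directs eosinophil, mast cell and erythroid fates, was at 58.0, 40.5, 43.9 and 53.3 CPM in NA MP replicates 1 to 4 and between 65.2 and 71.2 CPM in WT MPs. The NA MP samples lay below all WT MP samples, a log2 fold change of -0.48 (adjusted p = 3.25e-05 from edgeR). Its cofactor Zfpm1 was also lower (-0.46, adjusted p = 2.27e-14 from edgeR). Gata2, which acts in stem cells, mast cells and eosinophil precursors, was higher (0.44, adjusted p = 3.01e-05 from edgeR), with 278 CPM in NA MP replicate 1 and between 222 and 231 CPM in the other NA MPs, above the WT MPs at 171 to 179 CPM.

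Spi1, the myeloid ETS factor, was higher by 0.15 (adjusted p = 0.000378 from edgeR). Cebpa, which starts granulocyte fate, was at -0.05 and did not pass the threshold (adjusted p = 0.339 from edgeR). Its exons overlap a gene on the opposite strand, which leaves its count uncertain. Cebpe, needed for granule proteins of late granulocytes, was lower at -0.20 (adjusted p = 0.0202 from edgeR), and the direction was kept where this call was lost. The log2 fold change was -0.12 without NA MP replicate 1 (adjusted p = 0.121 from edgeR), -0.17 without NA MP replicate 4 (0.0749), -0.19 without WT MP replicate 2 (0.0540) and -0.20 with DESeq2 (0.058), and the adjusted p ranged from 0.000366 to 0.121 over its alternatives. Trib1, a pseudokinase that promotes C/EBP alpha degradation and is needed for eosinophil identity, was higher at 2.52 (adjusted p = 0.02 from edgeR). Its level was 5.80, 5.64, 22.9 and 21.0 CPM in NA MP replicates 1 to 4, and the call was lost without NA MP replicate 4 (2.21, adjusted p = 0.0573 from edgeR) and without WT MP replicate 2 (2.38, adjusted p = 0.0516), in a range from 1.05e-27 to 0.0573 for the adjusted p. Rara (0.72) and Ikzf2 (0.35) were the other genes of this list that rose among those named.

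Of 20 genes of the signalling chain shared by the interleukin-5, interleukin-3 and GM-CSF receptors, 19 were tested, 13 were higher and 1 was lower. Among all tested genes 17.9% were higher and 16.3% lower. The median log2 fold change of the 19 was 0.17. Csf2rb, the common beta chain that pairs with the product of Il5ra, was at 156 ± 9.52 CPM (SD, n = 4) in NA MPs and 138 ± 3.06 CPM (SD, n = 5) in WT MPs (log2 fold change 0.18, adjusted p = 0.000244 from edgeR). Csf2rb2, the interleukin-3-specific beta chain of mice, was higher at 0.67, and Csf2ra, the GM-CSF receptor alpha chain, at 0.19. Csf2rb and Csf2rb2 are close copies, and their counts are uncertain. Downstream, Socs3 (1.57), the kinase gene Pim1 (0.75), the survival gene Bcl2l1 (0.32) and Stat3 (0.28) were higher, and the phosphatase gene Ptpn11 was lower (-0.16). Pim1 and Stat3 overlap exons on the opposite strand. The ligands were hardly present, since 0 of 6 were tested, Il3, Csf2 and Ccl11 had 0 counts in all samples and the most abundant, Ccl5, averaged 0.501 CPM.

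Of 14 other genes known in eosinophils, 10 were tested, 4 were higher and 3 lower, beside 17.9% and 16.3% of all tested genes. The median log2 fold change of the 10 was 0.06. Adgre1, which encodes F4/80, rose by a log2 fold change of 0.57, and the adhesion genes Pecam1 (0.36), Itgam (0.30) and Itga4 (0.20) rose as well. The Fc receptor gene Fcgr3 (-0.57), the interleukin-33 receptor gene Il1rl1 (-0.39) and Cd24a (-0.16) were lower. The counts of Itgam and Itga4 are uncertain because of overlapping exons. Most of these genes are also expressed by other myeloid cells.

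Markers of other blood cell types were measured in the same samples. The lineage antibodies named in the methods were against Ter119, Mac1, Gr1, B220 and the T cell proteins CD2, CD3e, CD4 and CD8a, so the sort removes cells with these proteins on their surface. Of 12 mast cell and basophil markers, 8 were tested, 6 were higher and 1 was lower, beside 17.9% and 16.3% of all tested genes. Tpsab1 had 0 counts. The most abundant marker was Cpa3 in NA MPs, at a mean of 192 CPM, and Hdc in WT MPs, at a mean of 197 CPM. Their sum was 658, 610.3, 599.7 and 572 CPM in NA MP replicates 1 to 4 and 442, 433, 435, 422 and 402 CPM in WT MP replicates 1 to 5, without overlap. Replicate 1 of the NA MPs had the highest Ccr3 and the highest sum, while replicate 4, next for Ccr3 at 3.24 CPM, had the lowest sum of its group. Gzmb (2.32), the chymase gene Cma1 (1.96), the IgE receptor genes Fcer1a (1.40) and Ms4a2 (1.37) and the protease gene Cpa3 (0.92) rose, and Hdc, the histamine-making enzyme, fell by 0.24 on the log2 scale.

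Of 10 erythroid markers, 9 were tested and 8 were lower, where 16.3% of all tested genes were lower. Car1 was the most abundant of them at 352 CPM, and none was at 0. Their sum was 890.2, 745, 807 and 950.4 CPM in NA MP replicates 1 to 4 and 1497, 1506, 1391, 1355 and 1405 CPM in WT MP replicates 1 to 5. All NA MP samples lay below all WT MP samples. Of 8 B lymphoid markers all 8 were higher, where 17.9% of all tested genes were higher, and none was at 0. Rag1 was the most abundant in NA MPs, at a mean of 43.4 CPM, and Cd79b in WT MPs, at a mean of 24.4 CPM. The count of Rag1 is uncertain because of overlapping exons. Their sum was 141, 272, 272 and 193 CPM in NA MP replicates 1 to 4 and 37.3, 40.9, 39.0, 38.6 and 39.5 CPM in WT MP replicates 1 to 5, without overlap.

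Of 12 neutrophil markers, all tested, 8 were higher and none lower, beside 17.9% and 16.3% of all tested genes. Mpo was the most abundant of them at a mean of 15896 CPM. Their sum was 23794.5, 26361, 26068 and 25036 CPM in NA MP replicates 1 to 4 and 23957, 23622, 24049, 23666 and 23128.5 CPM in WT MP replicates 1 to 5, so the groups overlapped. Of 12 monocyte and macrophage markers, 10 were tested, 6 were higher and 2 lower, beside the same shares of all tested genes. Ly6c2 was the most abundant of them at a mean of 767 CPM. Their sum was 1777, 2017, 2071 and 1929 CPM in NA MP replicates 1 to 4 and 1659.6, 1683, 1689, 1752 and 1618 CPM in WT MP replicates 1 to 5, without overlap.

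Of 7 megakaryocyte markers, all tested, 1 was higher and 2 were lower, beside 17.9% and 16.3% of all tested genes. Itga2b was the most abundant of them at a mean of 157 CPM. Their sum was 288, 271, 258 and 253 CPM in NA MP replicates 1 to 4 and 274, 286, 269, 267 and 253 CPM in WT MP replicates 1 to 5, with overlap. None of the neutrophil, monocyte and megakaryocyte markers was at 0, and exons of Mpo overlap a gene on the opposite strand. Of 4 T lymphoid markers, Lck was the only one tested and rose by 2.27 on the log2 scale, while Cd3e and Cd3g had 0 counts. The sum of the 4 markers was 6.16, 8.54, 8.24 and 8.86 CPM in NA MP replicates 1 to 4 and 1.78, 1.16, 1.84, 1.95 and 1.82 CPM in WT MP replicates 1 to 5. Lck alone gave 6.16, 8.23, 8.24 and 8.86 CPM in NA MP replicates 1 to 4, so the sum is nearly that of 1 gene. The count of Lck is uncertain because of overlapping exons. The part of these cell types in the changes of the eosinophil genes was not tested.

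**Figure D4:**
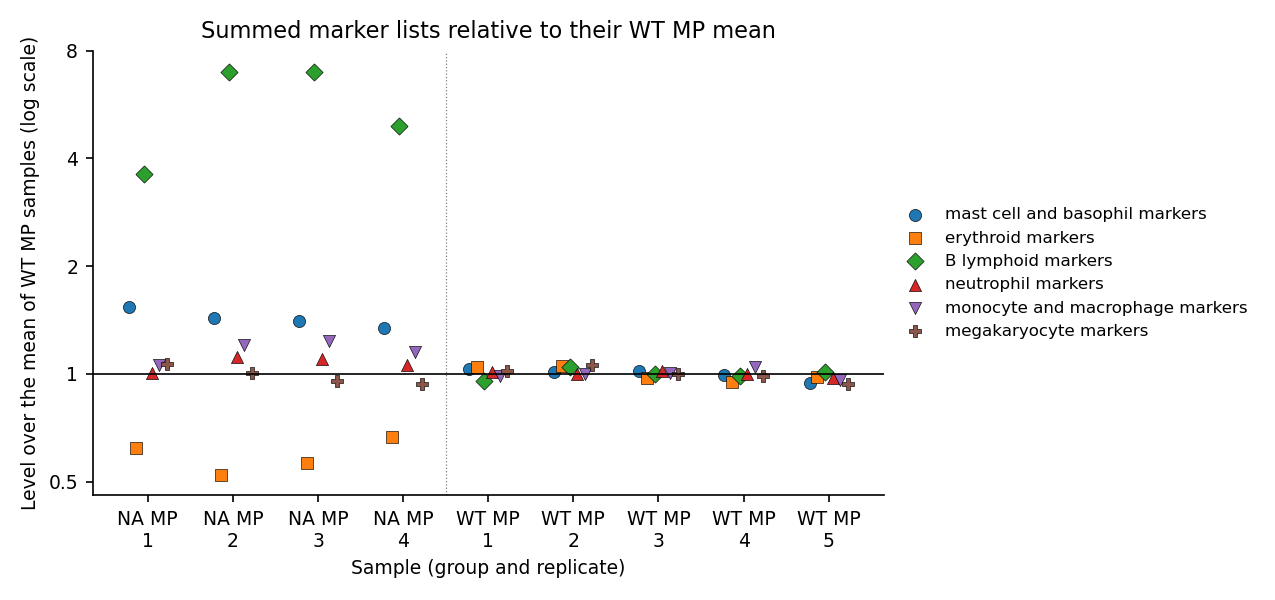
Summed CPM of 6 marker lists in each sample divided by the mean of the 5 WT MP samples (vertical axis, log scale; the line at 1 is that mean), with samples along the horizontal axis. In all 4 NA MP samples the erythroid sum lies below the line and the B lymphoid and the mast cell and basophil sums above it.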

How the data were processed

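TruSeq libraries were prepared from total RNA, and the submitters' processing notes name bcl2fastq, RSEM, DESeq2 and the mm10 build. Versions, annotation release and use of strand are not given in the sources used here. The deposited table holds RSEM expected counts per gene that had been divided by 1 factor per sample: between 97.3% and 97.6% of values above 0 in a sample were whole multiples of a step, within a tolerance of 0.02. Each column was divided by its step to recover the expected counts, which were rounded. This departs from treating the table as unscaled counts. Recovered totals were 5557718, 6600722, 6048378 and 8106140 for NA MP replicates 1 to 4 and 6141707, 7751471, 6509421, 6636191 and 7086154 for WT MP replicates 1 to 5.

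Of 37980 genes, 32916 had a name, 20104 any count and 11953 passed edgeR's filter (minimum count 10). NA MPs and WT MPs were compared by edgeR 4.0.16 in R 4.3.3 with TMM factors and a robust quasi-likelihood test, at a Benjamini-Hochberg adjusted p of 0.05. Standard errors were derived as the log2 fold change divided by the square root of the F statistic. Scripts were tested on simulated data. Coordinates and exon lengths come from GENCODE M21. Alternatives were RLE factors, no filter, DESeq2 1.42.0, a block on replicate number, unrounded counts, summed Ear genes, a threshold of 0.01 and each sample left out. Chosen after seeing the data were the deposited values as rounded counts, limma 3.58.1 with a trend on log2 of the deposited value plus 1, and library size without TMM.

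The members and the lists were chosen with earlier results of these data known. Named were the members, the fusion partners, detected Ear genes, up to 5 genes a direction past the threshold from each list by size of change, 8 regulators and receptor chains whatever their value, and the 5 genes most like Prg2. Some of those are given only as counts. The lists were the Ear family, eosinophil transcription factors and their regulators, interleukin-5 family signalling, ligands, other eosinophil genes, gate genes, and markers of mast cells and basophils, neutrophils, monocytes and macrophages, erythroid cells, megakaryocytes, B cells and T cells. Cd9, Adgre1 and Fcgr3 stand in more than 1 list. Intervals and floors cover counting error only.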

Additional observations from a re-analysis of the deposited data

Results flagged for a closer look

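Of 176 groups of 4 or 5 samples, 11 held a sample far from the others of its group, where chance gives about 1 in 20 groups, or 8.8 here. Among the members, WT MP replicate 5 stood low for Ear1, at 2.38 CPM, which rests on 17 counts. NA MP replicate 1 stood apart for 3 genes, high for Gata2 at 278 CPM and for the granzyme gene Gzmb at 57.6 CPM, and low for the integrin gene Itgam at 63.2 CPM. NA MP replicate 2 stood high for Cebpa at 217 CPM. WT MP replicate 2 stood high for Cd24a at 405 CPM and for Vwf at 39.5 CPM, and low for the summed T lymphoid markers at 1.16 CPM. WT MP replicate 5 was low for Hdc at 183 CPM, WT MP replicate 1 low for Camp at 16.4 CPM, and WT MP replicate 4 high for Cd34 at 374 CPM.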

How the results depend on the processing

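Of 73 tested genes named by the rule, 61 stayed on the same side of the threshold in each of the 19 alternatives, 12 changed, and 0 reversed. Ccr3 (2.05 to 2.89), Siglecf (0.43 to 0.48) and Prg3 (-1.05 to -0.57) kept their calls in all 19, and Ear1 in all 18 that counted it alone. The number of members that rose was 2 in every alternative. With the Ear genes summed, 2 members were lower instead of 4, because Ear1 and Ear2 were no longer counted alone. Between 3 and 6 members were lower when a sample was left out, with 6 without NA MP replicate 2 (Epx and Ear6 added) and 3 without NA MP replicate 3 or WT MP replicate 2 (Ear2 lost). With library size only, 5 were lower (Epx added). The cause was not tested.

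Genes past the threshold numbered 4078, between 3638 and 3959 with a sample left out, 3054 with DESeq2, 2886 at a threshold of 0.01, 4093 on the deposited values as rounded counts, 4105 with limma and 4231 with library size only. Same-numbered samples did not deviate together (correlations across genes 0.0077, 0.0062, -0.019 and 0.053), so the numbers do not pair the samples. With the replicate block 3741 genes passed, with 2 members higher and 3 lower, and Prg2 had -1.05 and an adjusted p of 0.0617 from edgeR, in a range from 0.000107 to 0.0617. For Il5ra the difference in mean CPM was 0.850, and between 0.645 and 0.994 with a sample left out. On the deposited values as rounded counts the Il5ra difference was 0.817, with p = 0.0476 from the permutation test. Ear1, Ear2, Ear6, Il5ra and Ccr3 rest on at most 40 counts in a sample, and sequence shared among the Ear genes limits their separate values.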
